A study of Mus musculus with 13 samples.

Results

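Translation initiation factor genes are described here across the mRNA and ATAC libraries of a mouse stem cell study. The members are all rows of the deposited count table whose symbol begins with Eif followed by a digit from 1 to 6, leaving out 3 such rows on chromosomes X and Y. This gave 61 of 24470 rows, spread over 18 chromosomes. Rows were picked by name and position, and this choice was made with earlier results of these data known. The cells were E14 embryonic stem cells, an established mouse line of 129/Ola background kept in serum with Leukemia Inhibitory Factor, with no genotype or treatment contrast between libraries. In the low-input protocol, permeabilized cells were first cut with the transposase Tn5, and poly(A) RNA was then captured from the lysate on oligo-dT beads, so that each ATAC library has an mRNA partner from the same cells. Experiment 1 supplied libraries from 10000 and 20000 cells, and experiment 2, made on another day, supplied libraries from 5000, 10000 and 20000 cells. Omni-ATAC, a standard ATAC protocol used as the benchmark, was run once each with 5000, 10000 and 50000 cells and has no mRNA partner.

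Initiation begins when eIF2 delivers the initiator tRNA to the small ribosomal subunit together with eIF1, eIF1A, eIF5 and the multi-subunit eIF3. The cap-binding eIF4 complex recruits the mRNA and unwinds its leader, the loaded subunit scans to the start codon, and eIF5B joins the large subunit. Signals act mainly through kinases that phosphorylate eIF2 and through 4E-binding proteins that hold back the cap-binding protein eIF4E. Most of these genes are transcribed in nearly every growing cell. The genes of the gamma subunit of eIF2 lie on the sex chromosomes and were outside the members.

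Reads assigned to genes, summed per mRNA library, ran from 13727122 to 20426252, so that 3 counts, the limit that a count of 0 allows, equal 0.147 to 0.219 CPM (counts per 1000000 counts of the library). Such limits speak only of counting error, because no molecular tags are described for these amplified reads. The 10 pluripotency markers together had 3303 to 3417 CPM in experiment 1 and 3312 to 3341 CPM in experiment 2, and 3 of them were called in the comparison of experiments described below, where 12.5% of all genes were (log2 fold changes of 0.42 for Klf4, 0.38 for Zfp42 and -0.57 for Utf1). Some markers of other cells moved between the experiments. The 8 fibroblast genes summed to 32.1 to 35.5 CPM in experiment 1 and 9.01 to 10.5 in experiment 2. Of these sums Thy1 alone made up 29.2 and 33.9 CPM, and 6.77 to 9.78 CPM, with Col3a1 and Lum at 0 in every library. Thy1 was the 1 called of 3 tested, and Pdgfrb had a log2 fold change of 1.28 (edgeR adjusted p = 0.348). The 5 primitive endoderm genes summed to 7.83 to 13.0 and 1.67 to 1.91 CPM. Of these sums Dab2 made up 8.23 and 4.35 CPM, and 0.490 to 1.03 CPM. Gata4, Sox17 and Foxa2 had too few counts for a test. The 5 genes of early lineages summed to 3.28 to 3.35 and 9.13 to 13.7 CPM. Of these sums Pax6 made up 0.146 and 0 CPM, and 3.52 to 6.96 CPM. The part of other cells in the differences below was not tested. By the series' design text the experiments were made on different days, so day and experiment cannot be told apart, and the labels do not name separate cultures within an experiment. The p-values therefore measure only the spread between these libraries.

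The upstream sequences of the members on which the results turn are shown first, because their peaks and the identity of copies are referred to below. Each line gives the 250 bases before the gene start in the RefSeq promoter table (GRCm38.p6, the mm10 build), which for these genes is also the start in the count table, written 5′ to 3′ on the gene's strand. For Eif2d the RefSeq gene span begins earlier, at 131153172, inside the window shown. The windows are chr1:37997760-37998009 (plus strand) for Eif5b, chr11:69672424-69672673 (minus) for Eif4a1, chr15:77970825-77971074 (minus) for Eif3d, chr1:131152957-131153206 (plus) for Eif2d and chr2:122028330-122028579 (plus) for Eif3j1. Capitals mark matches, on either strand, to 6 motifs searched: the E-box (CACGTG), the CCAAT box, the TATA box (TATAAA), an ETS motif (CCGGAAG), the stress response element TGATGCAA and the GC box (GGGCGG). No motif contains another.
Eif5b: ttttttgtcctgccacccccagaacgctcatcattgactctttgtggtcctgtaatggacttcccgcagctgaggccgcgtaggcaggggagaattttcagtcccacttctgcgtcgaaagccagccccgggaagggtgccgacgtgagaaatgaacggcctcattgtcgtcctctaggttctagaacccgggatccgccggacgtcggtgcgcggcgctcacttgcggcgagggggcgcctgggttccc
Eif4a1: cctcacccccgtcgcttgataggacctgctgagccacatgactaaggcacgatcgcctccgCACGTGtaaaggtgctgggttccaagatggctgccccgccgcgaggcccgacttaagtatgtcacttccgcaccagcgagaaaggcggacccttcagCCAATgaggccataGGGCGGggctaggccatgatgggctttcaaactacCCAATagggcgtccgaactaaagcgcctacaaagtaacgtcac
Eif3d: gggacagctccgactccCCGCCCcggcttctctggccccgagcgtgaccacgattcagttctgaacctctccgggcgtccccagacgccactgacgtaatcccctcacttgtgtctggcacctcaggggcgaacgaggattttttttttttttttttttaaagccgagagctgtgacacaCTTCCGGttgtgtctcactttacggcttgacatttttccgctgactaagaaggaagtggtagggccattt
Eif2d: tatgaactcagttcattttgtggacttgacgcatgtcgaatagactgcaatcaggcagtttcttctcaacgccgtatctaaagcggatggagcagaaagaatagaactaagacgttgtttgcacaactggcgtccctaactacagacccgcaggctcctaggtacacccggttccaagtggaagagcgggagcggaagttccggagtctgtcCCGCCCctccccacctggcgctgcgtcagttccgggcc
Eif3j1: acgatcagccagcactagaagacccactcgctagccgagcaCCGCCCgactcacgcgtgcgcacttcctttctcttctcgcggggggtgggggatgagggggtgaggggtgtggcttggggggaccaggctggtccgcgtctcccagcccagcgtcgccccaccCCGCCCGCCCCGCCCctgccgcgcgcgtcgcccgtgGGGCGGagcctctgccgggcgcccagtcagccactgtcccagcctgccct

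The Eif4a1 window held an E-box whose first base lies 189 bases before the start, CCAAT at 92 and 43, and a GC box at 78. The Eif3d window held the ETS motif at 70 and a GC box at 233, and the Eif2d window a GC box at 38. In Eif3j1 5 GC boxes were found, 3 of them running into each other between 86 and 77 bases before the start. None of the 6 motifs was found in the Eif5b window. Among 18204 promoters of the same length, 6.87% held the E-box, 36.3% CCAAT, 9.18% the ETS motif and 43.0% the GC box. Among the 5286 of them whose genes averaged at least 10 CPM, as all 5 genes shown do, the shares were 9.55%, 37.6%, 18.3% and 63.1%. A match describes these letters and is not evidence of binding. The promoter table holds a window for 44 of the 61 members, too few for a motif share over all members to be read.

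Most members were plainly expressed. Over the 5 mRNA libraries, 28 had a mean of at least 100 CPM, 19 a mean of 10 to 100, 8 a mean of 1 to 10 and 6 a mean under 1. These values are not divided by gene length, so they are compared between libraries and not between genes. Together the members took 1.42% and 1.41% of all counts in experiment 1 (10000 and 20000 cells), and 1.31%, 1.35% and 1.48% in the experiment 2 libraries from 5000, 10000 and 20000 cells. The ranges overlapped, and the means differed by -0.0339 percentage points (exact two-sided permutation test over 10 arrangements, p = 0.7, where 0.1 is the smallest this design allows). With library sizes scaled by TMM the difference was 0.00469, and without the library from 5000 cells it was 0.000283.

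**Figure D1:**
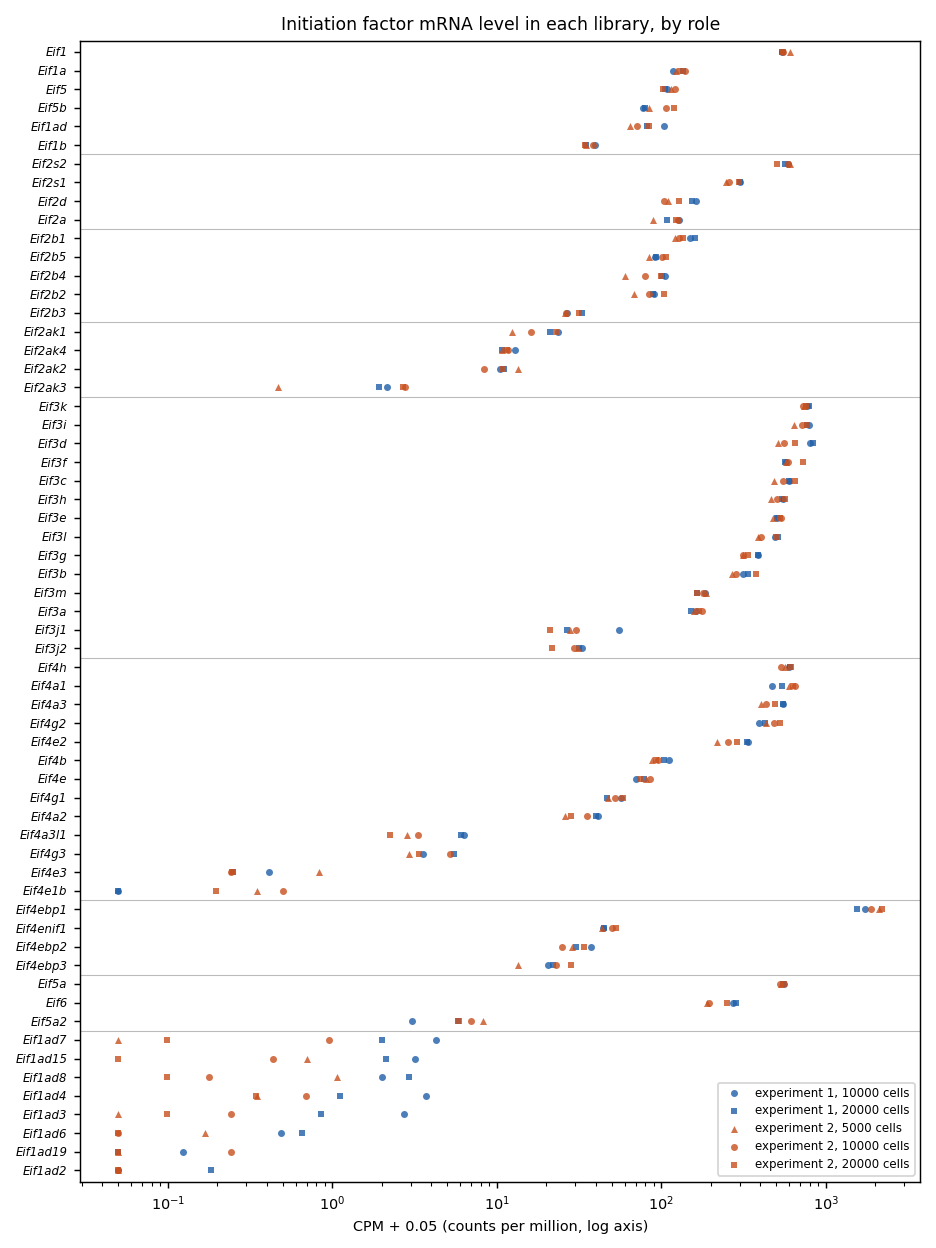
CPM of the 61 members in each of the 5 mRNA libraries, grouped by role with a line between roles (log axis, 0.05 added so that a value of 0 shows). Most genes with at least 10 CPM keep their libraries close together, while 6 of the 8 Eif1ad copies at the bottom lie higher in both experiment 1 libraries (blue) than in all experiment 2 libraries (orange). The exceptions, Eif1ad2 and Eif1ad19, are at or near 0 throughout. Of all 12523 genes tested, 41.5% did not overlap between the experiments over the 5 libraries, in either direction.

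Experiment 2 was compared with experiment 1 to see which members differed between days, over the 4 libraries from 10000 and 20000 cells. Eif5b and Eif4a1 were higher in experiment 2, and Eif2d, Eif3d and 4 of the Eif1ad copies (Eif1ad3, Eif1ad7, Eif1ad8 and Eif1ad15) were lower. These are 8 of 56 members with enough counts to be tested, 2 higher and 6 lower (edgeR's quasi-likelihood test, Benjamini-Hochberg adjusted p under 0.05), where 12.5% of all 12523 genes tested were called, 5.75% higher and 6.76% lower. The 4 Eif1ad copies passed the filter on low counts through experiment 1, which favoured a difference in advance. Nothing is therefore read from the count of 8. From a mean of 10 CPM upward, 4 of 47 members were called against 16.8% of 6485 genes. A separate fit on genes with at least 10 CPM called 8 of the 47, against 21.9% of its 6541 genes, adding Eif3j1, Eif4e2, Eif4ebp1 and Eif6. Without the experiment 1 library from 10000 cells 1 member was called (7.57% of all genes), and without the experiment 2 library from 20000 cells 3 (6.43%). Eif1ad19, Eif1ad2, Eif1ad6, Eif4e1b and Eif4e3 had too few counts for a test.

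Differences of the members were mostly small. Spread falls with level, so the 47 members that average at least 10 CPM are set beside the 6485 tested genes that do. This leaves out the Eif1ad copies. Levels were not matched above that floor, where 28 of these members averaged at least 100 CPM. The part of level in the values below was therefore not tested. The median size of the log2 fold change was 0.15 over these members and 0.23 over these genes. The fitted change was within 25% either way for 40 of the 47 members (85.1%) and for 64.8% of the genes. The median coefficient of variation over the 5 libraries was 11.4% for the members and 15.0% for the genes. CPM of the experiments did not overlap in the 4 fitted libraries for 24 of the 47 members (51.1%), against 58.6% of the genes, and in all 5 libraries for 19 members (40.4%), against 46.3%. The 43 uncalled members with at least 10 CPM had log2 fold changes from -0.67 to 0.32, and a missed threshold does not show that their levels were equal.

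**Figure D2:**
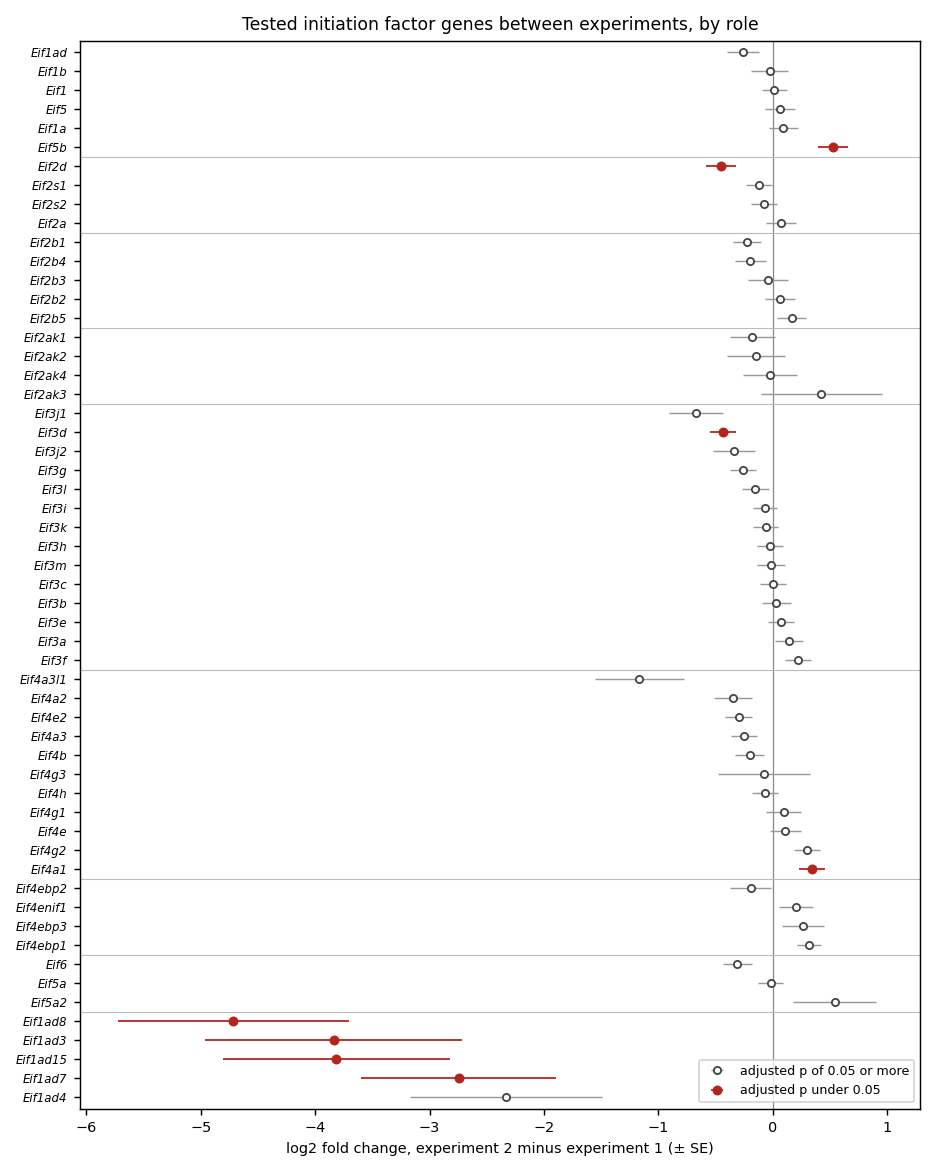
Log2 fold change of experiment 2 over experiment 1 for the 56 tested members, grouped by role. Bars are the standard error derived from the fold change and the edgeR test statistic. Filled points are the 8 members with an adjusted p under 0.05, which are Eif5b and Eif4a1 on the right of 0, and Eif2d, Eif3d and 4 Eif1ad copies on the left.

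Among the 6 genes placed under scanning and subunit joining, Eif5b was the 1 called, where 12.5% of all genes were. That share applies to the counts by role that follow as well. With so few genes per role, nothing is read from these counts. Eif5b, the GTPase that joins the large subunit, had 77.3 and 79.5 CPM in the experiment 1 libraries from 10000 and 20000 cells, and 84.4, 107 and 119 CPM in the experiment 2 libraries from 5000, 10000 and 20000 cells. Every experiment 2 library lay above both experiment 1 libraries, with the library from 5000 cells nearest to them. The mean rose from 78.4 ± 1.56 to 113 ± 8.69 CPM in the fitted libraries (SD over 2 libraries each), a log2 fold change of 0.53 ± 0.13 SE (edgeR adjusted p = 0.0079). Eif5b (mm10 chromosome 1, 37998010 to 38055579) overlaps Rev1 on the opposite strand by 2794 bp, and Rev1 had 0.903 to 2.77 CPM. Without the experiment 1 library from 10000 cells the edgeR adjusted p was 0.0728, and without the experiment 2 library from 20000 cells it was 0.0784. Eif1, which guards start codon choice, stayed between 541 and 548 CPM in 4 libraries and had 607 CPM in the library from 5000 cells. Eif1b, its close relative, had 34.4 to 39.6 CPM in the 5 libraries, and the experiments overlapped. Log2 fold changes of the 5 uncalled genes placed in this role ran from -0.26 for Eif1ad to 0.09 for Eif1a. The next lowest was -0.03 for Eif1b.

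In the group around eIF2, Eif2d was the 1 of 4 genes called. Eif2d, which can deliver tRNA to the ribosome outside the usual eIF2 route, had 163 and 154 CPM in experiment 1 (10000 and 20000 cells), and 109, 103 and 128 CPM in experiment 2 (5000, 10000 and 20000 cells). The experiments did not overlap over the 5 libraries. The mean fell from 159 ± 6.47 to 116 ± 17.7 CPM (SD over 2 libraries each), a log2 fold change of -0.45 ± 0.13 SE (edgeR adjusted p = 0.0205). Without the experiment 1 library from 10000 cells the log2 fold change was -0.41 (edgeR adjusted p = 0.152), and without that of experiment 2 it was -0.30 (edgeR adjusted p = 0.262). Eif2d (chromosome 1, 131153207 to 131173471) overlaps no other row of the table. Eif2s2, the beta subunit of eIF2, had 588 and 563 CPM in experiment 1 and 601, 586 and 507 CPM in experiment 2. Eif2a, an alternative tRNA carrier, had 128 and 109 CPM in experiment 1 and 89.1, 126 and 123 CPM in experiment 2. Both genes overlapped between experiments. Genes of chromosome 1, which holds Eif5b and Eif2d, had a median log2 fold change of 0.07.

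None of the 5 genes of eIF2B, the factor that recharges eIF2 with GTP, was called between experiments. Their log2 fold changes ran from -0.23 to 0.17, and their summed level was 463 and 475 CPM in experiment 1 and 359, 418 and 478 CPM in experiment 2. The lowest sum was in the library from 5000 cells and the highest in experiment 2 with 20000 cells. Eif2b1 had 149.7 and 159.8 CPM in experiment 1 and 120.2, 128 and 136 CPM in experiment 2, without overlap (log2 fold change -0.23 ± 0.12, edgeR adjusted p = 0.247). Eif2b3 had 26.7 and 32.8 CPM in experiment 1 and 25.8, 26.4 and 31.4 CPM in experiment 2, which overlapped.

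The 4 kinases that phosphorylate eIF2 also gave no call between experiments. Eif2ak1, the heme-regulated kinase, had 23.5 and 20.9 CPM in experiment 1 and 12.2, 16.2 and 23.0 CPM in experiment 2. Eif2ak3, the kinase of the endoplasmic reticulum stress response, had 29 and 28 counts (2.11 and 1.87 CPM) in experiment 1, and 7, 42 and 54 counts (0.418, 2.71 and 2.64 CPM) in experiment 2. The library from 5000 cells was the low one for both kinases. Set against the mean of the other experiment 2 libraries on the log2(CPM + 1) scale, Eif2ak3 was the 1 of 55 members with a mean of at least 1 CPM that lay past 2-fold in that library, where 2.96% of 11512 genes did. Measured the same way, 0 members lay past 2-fold in the libraries from 10000 and 20000 cells (0.929% and 0.625% of genes). This rests on 1 library and has no replicate check.

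The 14 rows of eIF3, the scaffold that holds the small subunit in the preinitiation complex, had a median log2 fold change of -0.04 between experiments, and 1 was called. Eif3d, a subunit that can itself bind the cap of some mRNAs, had 804 and 831 CPM in experiment 1 (10000 and 20000 cells), and 511, 557 and 650.5 CPM in experiment 2 (5000, 10000 and 20000 cells). The experiments were well apart, and the experiment 2 values spread more. The mean fell from 817 ± 19.4 to 604 ± 65.8 CPM (SD over 2 libraries each), a log2 fold change of -0.44 ± 0.11 SE (edgeR adjusted p = 0.0104). Leaving out 1 library raised the edgeR adjusted p to 0.0509 (experiment 1, 10000 cells), 0.0814 (experiment 1, 20000 cells) or 0.0990 (experiment 2, 10000 cells), with the sign kept.

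Eif3d (chromosome 15, 77958998 to 77970824) lies on a chromosome whose 310 genes with at least 10 CPM had a median log2 fold change of -0.25 between the experiments, 27.7% of them called. The part of the chromosome in the Eif3d value was not tested. Of the other eIF3 genes on chromosome 15, Eif3e had a log2 fold change of 0.07, Eif3h -0.02 and Eif3l -0.15, and none was called.

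Balance within eIF3 was followed as the share of each gene in the summed eIF3 counts of a library, which needs no scaling between libraries. The shares are not per length and do not give subunit ratios. Eif3d made up 12.96% and 13.40% of eIF3 counts in experiment 1 (10000 and 20000 cells) and 9.72%, 9.96% and 10.4% in experiment 2 (5000, 10000 and 20000 cells). Its share was lower in all 3 experiment 2 libraries (log2 ratio of the means -0.39). Eif3f went the other way, with 9.18% and 9.04% in experiment 1 and 10.8%, 10.5% and 11.7% in experiment 2 (log2 ratio 0.28), although its own fit did not call it (log2 fold change 0.22 ± 0.12, edgeR adjusted p = 0.233). Without the experiment 2 library from 10000 cells Eif3f had a log2 fold change of 0.38 and was called (edgeR adjusted p = 0.0499), and without that from 20000 cells it had 0.07 (edgeR adjusted p = 0.799). Without overlap between the experiments, Eif3a, Eif3e and Eif3h also had higher shares in experiment 2 (log2 ratios 0.22, 0.15 and 0.03), and Eif3g had a lower one (-0.15). A lower share of 1 gene raises all other shares by construction.

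**Figure D3:**
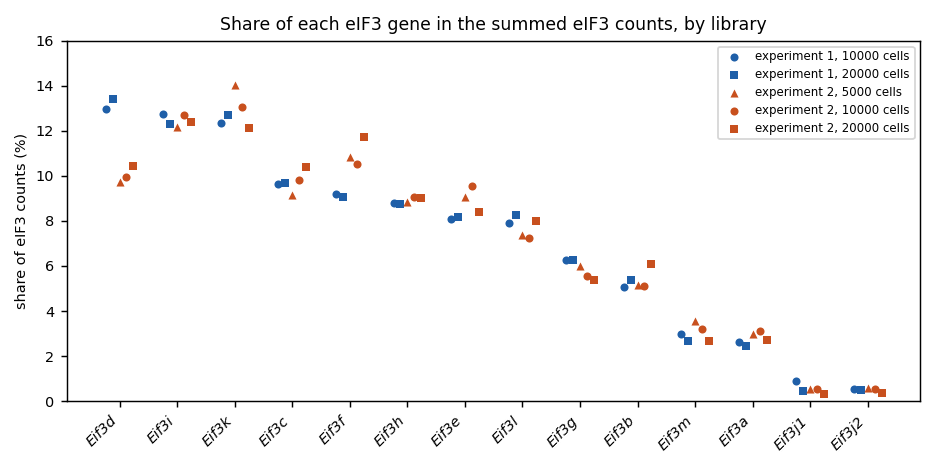
Share of each of the 14 eIF3 rows in the summed eIF3 counts, in percent, with 1 point per mRNA library. Eif3d sits at 12.96% and 13.40% in experiment 1 (blue) and at 9.72% to 10.4% in experiment 2 (orange), and the shares of Eif3f lie in the opposite order.

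None of the remaining subunits was called in the fit of the 4 libraries. Eif3a, the large scaffold subunit, had 162 and 151 CPM in experiment 1 and 157, 175 and 169 CPM in experiment 2. Eif3b and Eif3c, its partners in the core, had 315 and 335 CPM and 597 and 600.1 CPM in experiment 1, where Eif3b had 269.9, 286 and 378 and Eif3c 482, 550.1 and 647 CPM in experiment 2. For Eif3b and Eif3c the library from 5000 cells was lowest and the experiment 2 library from 20000 cells highest. Eif3g, which binds RNA, had 388 and 389 CPM in experiment 1 and 315, 312 and 335 CPM in experiment 2. These did not overlap (log2 fold change -0.26 ± 0.11, edgeR adjusted p = 0.135). Eif3i ranged over 640.4 to 791 CPM, Eif3k over 729 to 787, Eif3e over 476 to 534, Eif3h over 464 to 563, Eif3l over 388 to 512, Eif3m over 166 to 188 and Eif3f over 561 to 729.8.

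Eif3j1 encodes the loosely bound subunit eIF3j, which sits near the decoding centre and is also known from ribosome recycling, and it was the least even eIF3 row. It had 55.3 and 26.6 CPM in experiment 1 with 10000 and 20000 cells, and 28.0, 30.3 and 21.1 CPM in experiment 2 with 5000, 10000 and 20000 cells. The experiment 1 library from 10000 cells stood above the other 4. Between experiments Eif3j1 was not called (log2 fold change -0.67 ± 0.24 SE, edgeR adjusted p = 0.0625). With cell number as a block it was called (-0.61 ± 0.17, edgeR adjusted p = 0.00866), and without the experiment 1 library from 10000 cells the log2 fold change was -0.05 (edgeR adjusted p = 0.944). Without the experiment 1 library from 20000 cells it was -1.09 (edgeR adjusted p = 6.26e-06). Its share of eIF3 counts had a log2 ratio of -0.49, which became 0.13 without the experiment 1 library from 10000 cells. Eif3j2, a near-identical second gene on chromosome 18, had 33.1 and 31.4 CPM in experiment 1 and 30.9, 29.5 and 21.4 CPM in experiment 2. How reads that match both were counted is not given in the sources used here, so the split between Eif3j1 and Eif3j2 is uncertain.

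The number of cells was varied to test low input, and 20000 cells were compared with 10000 over the same 4 libraries. Of 56 members 0 were called by edgeR and 0 by DESeq2, and 1, Eif3j1, had an edgeR p under 0.05 before adjustment. Of all 12523 genes, 0 (0.0%) were called, and 101 passed before adjustment. A missed threshold does not show equal levels here either. Biological variation in this fit, which mixes the experiments, had a coefficient of 32.0%. With the experiment as a replicate block it was 17.5%, and 4 genes (0.0319%) were called, Eif3j1 among them.

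Within experiment 1 the log2 ratio of 20000 over 10000 cells was -1.05 for Eif3j1, and within experiment 2 it was -0.52, so the level was lower with more cells in both pairs. The paired log2 fold change was -0.81 ± 0.17 (SE, edgeR adjusted p = 0.0417), and without the block it was -0.86 (edgeR adjusted p = 0.999). The experiment 2 library from 5000 cells, with 28.0 CPM, lay just under that from 10000 cells. It is 1 library without a replicate, and a trend of Eif3j1 over cell numbers was not tested. For Eif3j2 the ratios were -0.08 and -0.46, and the paired fit gave -0.29 ± 0.18 (edgeR adjusted p = 0.998). Eif3j1 (chromosome 2, 122028580 to 122053632) overlaps Spg11 on the opposite strand by 107 bp. Spg11 had 4.95 CPM in each experiment 1 library and 5.25, 7.16 and 5.43 CPM in experiment 2, with its highest value in the library from 10000 cells of experiment 2.

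**Figure D4:**
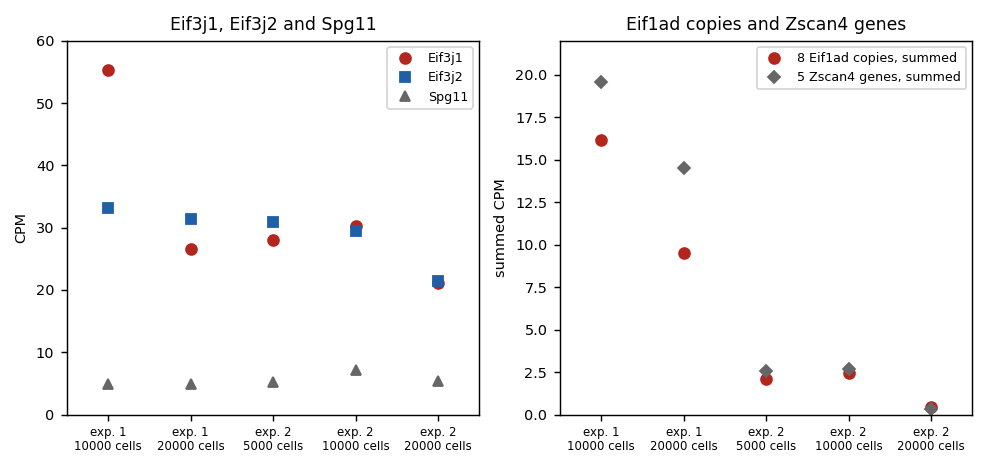
Left, CPM of Eif3j1, its near-identical copy Eif3j2 and the overlapping gene Spg11 in the 5 mRNA libraries; right, the summed CPM of the 8 Eif1ad copies and of 5 Zscan4 rows. Eif3j1 reaches 55.3 CPM in 1 library and 21.1 to 30.3 in the others, while both sums on the right are higher in both experiment 1 libraries.

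In the cap-binding and helicase group, 1 of 11 tested genes was called between experiments, where 12.5% of all genes were. Eif4a1, the main helicase of eIF4F, had 469.6 and 544 CPM in experiment 1 (10000 and 20000 cells), and 594, 651 and 632 CPM in experiment 2 (5000, 10000 and 20000 cells). All 3 experiment 2 libraries were above both experiment 1 libraries. The mean rose from 507 ± 52.8 to 641 ± 13.5 CPM (SD over 2 libraries each), a log2 fold change of 0.34 ± 0.11 SE (edgeR adjusted p = 0.0496). This call is marginal: without TMM scaling the edgeR adjusted p was 0.0576, with cell number as a block 0.0515, and without any 1 of the experiment 1 library from 10000 cells or the experiment 2 libraries from 10000 and 20000 cells 0.468, 0.131 and 0.0668. With the library from 5000 cells added it was 0.0577. Eif4a1 (chromosome 11, 69666936 to 69672423) overlaps no other row, and genes of chromosome 11 had a median log2 fold change of -0.03.

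Other eIF4 genes did not pass the test. Eif4h, which aids the helicase, had 597 and 606 CPM in experiment 1 and 564, 535 and 614 CPM in experiment 2, and the experiments overlapped. Eif4g3, a scaffold paralog, had 48 and 81 counts in experiment 1 and 48, 80 and 68 in experiment 2. Eif4g2, a scaffold that does not bind eIF4E, had a log2 fold change of 0.30 ± 0.11 (edgeR adjusted p = 0.0828), and DESeq2 called it. Eif4e2, a cap-binding repressor, had one of -0.30 ± 0.12 (edgeR adjusted p = 0.0943), and was called in the fit on genes with at least 10 CPM (0.0493). Eif4a3l1, a copy of the helicase gene Eif4a3 on chromosome 6, had 86 and 90 counts (6.26 and 6.02 CPM) in experiment 1 and 47, 51 and 45 counts (2.80, 3.29 and 2.20 CPM) in experiment 2. The experiments did not overlap, yet the adjusted p was just above the threshold (log2 fold change -1.17 ± 0.39, edgeR adjusted p = 0.0503). With cell number as a block it was 0.0413, and without the experiment 1 library from 20000 cells 0.0456. Eif4a3 itself had a log2 fold change of -0.25 ± 0.11 (edgeR adjusted p = 0.15), and how reads shared by the pair were counted is not known.

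The 4 genes that restrain eIF4E gave no call. Eif4ebp1, the 4E-binding protein switched off by mTORC1, had 1722 and 1551 CPM in experiment 1 and 2091, 1876 and 2199 CPM in experiment 2. All 3 experiment 2 libraries were higher, with a log2 fold change of 0.32 ± 0.11 (edgeR adjusted p = 0.0555), and DESeq2 gave an adjusted p of 0.0332. Without the experiment 2 library from 10000 cells Eif4ebp1 was called (log2 fold change 0.43, edgeR adjusted p = 0.00946), and without that from 20000 cells the log2 fold change was 0.21 (edgeR adjusted p = 0.25). Eif4ebp1 lies on chromosome 8 (27260327 to 27275656), where 409 genes with at least 10 CPM had a median log2 fold change of 0.46. The part of the chromosome in its value was not tested. Eif4ebp3, a related binding protein, had 20.5 and 21.9 CPM in experiment 1 and 13.3, 22.9 and 28.1 CPM in experiment 2, which overlapped.

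Eif5a, whose protein carries hypusine and helps ribosomes through difficult peptide bonds, had the smallest spread of the 61 members, with 555 and 546 CPM in experiment 1 and 535, 529 and 559 CPM in experiment 2. Its coefficient of variation over the 5 libraries was 2.41%. Its paralog Eif5a2 had 41 and 86 counts in experiment 1 and 138, 107 and 120 in experiment 2. These did not overlap, and the difference was not called (log2 fold change 0.54 ± 0.36, edgeR adjusted p = 0.376). Without the experiment 1 library from 10000 cells Eif5a2 had 0.15 (edgeR adjusted p = 0.896), and without that from 20000 cells it had 1.11 and was called (edgeR adjusted p = 0.0481). Eif6, which keeps the ribosomal subunits apart, had 271 and 283 CPM in experiment 1 and 190.3, 193 and 252 CPM in experiment 2, without overlap (log2 fold change -0.31 ± 0.13, edgeR adjusted p = 0.111). It was called in the fit on genes with at least 10 CPM and without the experiment 2 library from 20000 cells.

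The 8 Eif1ad copies form a cluster of rows on chromosome 12, apart from Eif1ad itself on chromosome 19. They are related to eIF1A, RefSeq lists Eif1ad15 as a transcribed pseudogene (Gm5039), and genes of this kind are known from the rare 2-cell-like state of mouse stem cell cultures, which Zscan4 also marks. Summed, they had 222 and 142 counts (16.2 and 9.50 CPM) in experiment 1 with 10000 and 20000 cells, and 35, 38 and 9 counts (2.09, 2.45 and 0.441 CPM) in experiment 2 with 5000, 10000 and 20000 cells. Both experiment 1 libraries were above all 3 experiment 2 libraries. The 5 Zscan4 rows, chosen after their values were seen, summed to 269 and 217 counts in experiment 1 and 43, 42 and 7 in experiment 2. By CPM the libraries stood in the same order for both sums, and the part of such cells in the values was not tested. In bulk libraries, fewer cells of a type and less RNA per cell cannot be told apart.

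Single copies had few counts. Eif1ad8 had 27 and 43 counts in experiment 1 and 17, 2 and 1 in experiment 2 (log2 fold change -4.71 ± 1.01, edgeR adjusted p = 0.00252). Eif1ad15 had 43 and 31 against 11, 6 and 0 counts (-3.81 ± 0.99, edgeR adjusted p = 0.0119), and Eif1ad3 37 and 12 against 0, 3 and 1 (-3.84 ± 1.12, edgeR adjusted p = 0.0245). Eif1ad7 had 58 and 29 counts against 0, 14 and 1 (-2.74 ± 0.85, edgeR adjusted p = 0.0343), and Eif1ad4, which was not called, 50 and 16 against 5, 10 and 6 (-2.33 ± 0.84, edgeR adjusted p = 0.0688). Without the experiment 1 library from 10000 cells Eif1ad8 was the 1 copy called, and without the experiment 2 library from 20000 cells 0 were. Eif1ad8 also lost its call without the experiment 1 library from 20000 cells (-4.38, edgeR adjusted p = 0.0830) and with the library from 5000 cells added (-2.53, edgeR adjusted p = 0.0960). With that library added Eif1ad15 was not called either (-2.84, edgeR adjusted p = 0.0588). Without the experiment 2 library from 10000 cells Eif1ad3 lost its call (-4.95, edgeR adjusted p = 0.105), while Eif1ad15 moved to -8.41 and Eif1ad7 to -5.76. Eif1ad4 was called without the experiment 1 library from 20000 cells (-2.95, edgeR adjusted p = 0.0126). With the experiment 1 library from 10000 cells left out, log2 fold changes were -1.19 for Eif1ad4, -2.05 for Eif1ad7 and -2.70 for Eif1ad3. Those of Eif1ad15 and Eif1ad8 were -3.45 and -4.96. At such counts the fitted fold depends on the prior count of the fit and is no bound. These rows passed the filter through their counts in experiment 1, which favoured a difference in advance. Their number among the calls is not read as support. Eif1ad2, Eif1ad6 and Eif1ad19 had at most 9 counts in any library.

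The promoter table holds windows for 3 of the copies, and the closest pair is shown to make the likeness visible, chr12:87816327-87816576 for Eif1ad2 and chr12:87618659-87618908 for Eif1ad6 (both plus strand). Capitals mark the run that the windows share.
Eif1ad2: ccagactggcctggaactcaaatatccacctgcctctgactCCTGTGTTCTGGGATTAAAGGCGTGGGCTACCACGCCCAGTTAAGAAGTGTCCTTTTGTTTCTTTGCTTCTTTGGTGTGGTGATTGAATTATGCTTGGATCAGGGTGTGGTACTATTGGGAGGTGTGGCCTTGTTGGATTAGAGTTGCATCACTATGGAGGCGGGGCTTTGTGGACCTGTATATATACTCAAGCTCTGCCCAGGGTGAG
Eif1ad6: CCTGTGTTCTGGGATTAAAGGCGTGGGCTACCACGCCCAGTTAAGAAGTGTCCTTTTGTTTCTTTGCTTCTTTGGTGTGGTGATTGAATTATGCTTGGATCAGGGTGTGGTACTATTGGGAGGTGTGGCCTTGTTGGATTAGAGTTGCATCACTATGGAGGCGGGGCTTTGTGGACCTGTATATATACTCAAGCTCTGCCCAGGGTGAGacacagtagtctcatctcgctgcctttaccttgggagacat

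This run is 209 bases long without a mismatch and sits 41 bases further from the start used in the promoter table in Eif1ad6 than in Eif1ad2. In RefSeq these genes are listed as BB287469 and Gm4027. The RefSeq span of Gm4027 runs from 87617797 to 87622288, so the Eif1ad6 window lies inside it, while the count table starts this gene at 87618909. Of the motifs searched, both windows held CCAAT and TGATGCAA, on the opposite strand. The latter was found in 0.846% of all 18204 promoters. Eif1ad19, the third copy with a window, was less alike, with 72.4% of 250 bases identical to Eif1ad2 and 67.2% to Eif1ad6. Transcribed sequences were not compared here, and how reads that match several copies were counted is not given in the sources used here, so values of single copies are reported as uncertain.

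Initiation partners whose names lie outside the chosen pattern were set beside the members. Of 17 such genes, 2 were higher in experiment 2 and 2 lower, where 5.75% of all genes were higher and 6.76% lower; the same shares apply to the lists that follow. Abce1, the ribosome recycling ATPase, had a log2 fold change of 0.78 ± 0.12 (edgeR adjusted p = 0.000109; chromosome 8), and Paip1, a partner of the poly(A)-binding protein, 0.82 ± 0.23 (edgeR adjusted p = 0.0178). Pabpc1, the poly(A)-binding protein itself, fell by 0.51 (edgeR adjusted p = 0.00224; chromosome 15), and Mcts2, a relative of the partner of DENR, by 0.65 on the log2 scale (edgeR adjusted p = 0.00147). Of 10 genes of the mTORC1 axis, which acts on the 4E-binding proteins, 0 were called. Of 16 genes of the integrated stress response, which follows phosphorylation of eIF2, 2 were higher in experiment 2 (Psat1 0.68, Impact 0.93) and 5 lower. The lower ones were Ddit3 (-1.28), Ddit4 (-0.98), Sesn2 (-0.80), Ppp1r15a (-0.75) and Chac1 (-0.49), in log2 fold change. Atf4, the transcription factor of this response, had -0.11 ± 0.11 (edgeR adjusted p = 0.567), and the list had a median of -0.01 against 0.00 for all genes. Of 11 elongation and release genes, Eef1a1 (0.68) and Eef1g (0.33) were higher and 0 lower. None of these genes was called between cell numbers, with or without the block.

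Chromatin at the start of each member was read from the 8 ATAC peak lists, counting a peak that overlaps the 1000 bp on either side of the gene's 5′ end by at least 1 bp. In the low-input lists, 27 and 37 of 61 members had such a peak in experiment 1 (10000 and 20000 cells), and 33, 38 and 48 in experiment 2 (5000, 10000 and 20000 cells). The shares over all genes were 31.1% and 37.4%, and 31.1%, 40.5% and 50.3%. In the Omni-ATAC lists from 5000, 10000 and 50000 cells, 18, 38 and 51 members had a peak, against 18.6%, 41.5% and 61.1% of all genes. The members are mostly expressed genes, and among the 47 with at least 10 CPM the shares were near those of all expressed genes. They were 51.1% against 61.7%, and 74.5% against 71.2%, in experiment 1 and 63.8% against 62.7%, 74.5% against 76.9% and 93.6% against 88.8% in experiment 2. The Omni-ATAC lists gave 36.2% against 38.8%, 76.6% against 75.9% and 97.9% against 95.7%. The lists hold 9097 to 95457 peaks, of unknown sequencing depth. In each list, 24.4% to 59.2% of the peaks had the minimum width of 9 bp.

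All 8 lists had a peak at 14 members, namely Eif1, Eif2a, Eif2ak1, Eif2ak3, Eif2ak4, Eif2b2, Eif2b4, Eif2s1, Eif4a1, Eif4ebp2, Eif4g2, Eif5, Eif5a and Eif5b, against 14.8% of all genes. Of the 47 members with at least 10 CPM, 27.7% did, against 32.2% of such genes. The 14 include both members called higher in experiment 2, and also Eif2ak3, at a mean of 1.95 CPM. At Eif1 the widest peak was 9 to 28 bp in every list but that of Omni-ATAC from 50000 cells. At Eif4a1 the widest peak was 19 bp in the Omni-ATAC list from 5000 cells and 249 to 404 bp in the other lists, and peaks of all 8 lists overlapped the printed window. At Eif5b the peaks were 20 to 524 bp wide, and those of 2 lists overlapped its window. Eif2a, Eif2b4, Eif2s1 and Eif5b have the start of another gene on the opposite strand within 1000 bp (Serp1, Snx17, Atp6v1d and Txndc9), so their peaks cannot be given to 1 gene.

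**Figure D5:**
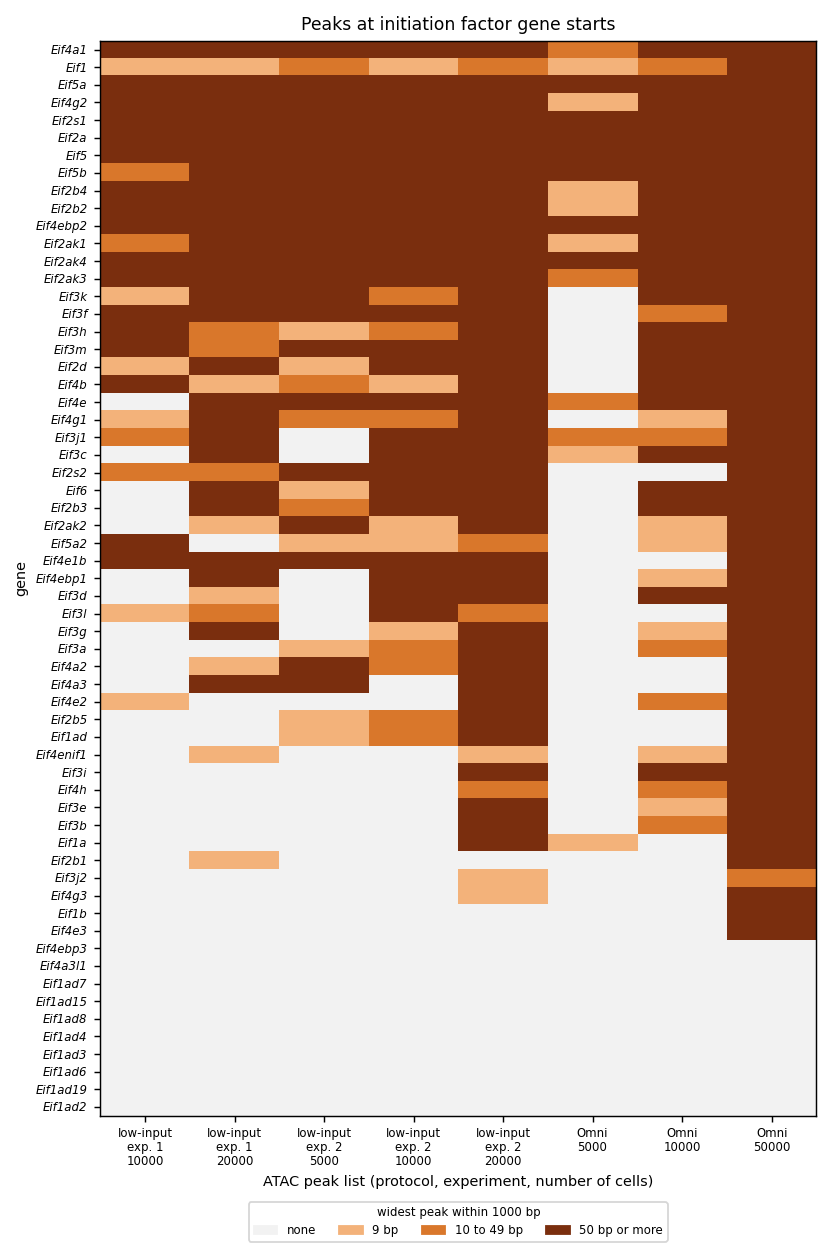
Widest peak within 1000 bp of the start of each member (rows) in each of the 8 ATAC lists (columns), in 4 classes of width. The 14 members with a peak in all lists stand at the top, and the bottom rows without any peak are the 8 Eif1ad copies, Eif4a3l1 and Eif4ebp3.

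Among the members called lower, Eif2d had a peak in 7 lists, all but Omni-ATAC with 5000 cells, and in 2 of those lists its peak had the minimum width of 9 bp. Eif3d had one in 5 lists, and was without a peak in the low-input lists from 10000 cells of experiment 1 and 5000 cells of experiment 2. Its widest peaks were 9 bp in experiment 1 with 20000 cells and 92 and 155 bp in experiment 2 with 10000 and 20000 cells, while its mRNA was higher in experiment 1. Without peak heights or depth no change in accessibility was tested. Eif3j1 had a peak in 7 lists, all but the low-input list from 5000 cells. Widths were 24 and 238 bp in experiment 1, and 238 and 242 bp in experiment 2 with 10000 and 20000 cells.

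Peaks and mRNA did not always go together. Eif3b, Eif3e, Eif3i and Eif4h had means of 317 to 736 CPM and a peak in 3 lists each, those of the low-input library from 20000 cells of experiment 2 and of Omni-ATAC with 10000 and 50000 cells. Eif4e1b, an oocyte form of the cap-binding protein, had a mean of 0.179 CPM and a peak in 6 lists, including all 5 low-input ones. Eif4ebp3, at a mean of 21.3 CPM, had a peak in none of the 8 lists. The 8 Eif1ad copies and Eif4a3l1 had none either. How reads that match several places were treated before peaks were called is not given in the sources used here.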

How the data were processed

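The authors deposited whole-number counts per gene for 5 mRNA libraries and, as intervals without heights or scores, 1 ATAC peak list per library and a unified list of 18310 regions. Coordinates are mm10 per the submitters' processing notes, which name STAR 2.5, featureCounts from Subread 1.5.0-p1, Bowtie2 2.1.0, MACS2 2.1.1 and bedtools 2.24.0. Use of strand, multi-mapping reads and peak thresholds are not given in the sources used here. Groups came from the sample titles.

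CPM were computed from the deposited counts. edgeR 4.0.16 (filterByExpr, TMM, glmQLFit and glmQLFTest, R 4.3.3) was fitted to all genes of the 4 libraries from 10000 and 20000 cells, with Benjamini-Hochberg adjustment over 12523 genes and a threshold of 0.05. The unreplicated library from 5000 cells stayed outside the main fits. Standard errors of edgeR fits are the size of the log2 fold change divided by the square root of the F statistic. DESeq2 1.42.0, other scalings and filters, blocks and leaving out each library were alternatives. The experiments were made on different days per the series' design text, so the experiment number was taken to pair libraries. The difference of experiment 2 from experiment 1 was taken per gene at each cell number; over 12523 genes, Pearson's r between these differences was 0.536, and 66.3% of genes kept their sign. No pair of libraries agreed within sampling noise (chi-square per gene at least 10.1). The table holds no gene length, so eIF3 genes were compared between libraries only, in place of the planned values per length. Fits were tested on simulated counts. Python 3.11.15, pandas 2.3.3 and matplotlib 3.10.9 were used.

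Named are members called in any of the 3 fits, every eIF3 row, near-identical copies, and the tested members with the highest and lowest mean CPM of each role; other members were named after their values were seen. The members and lists were chosen with earlier results of these data known. Promoter sequences are from RefSeq (GRCm38.p6).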

Additional observations from a re-analysis of the deposited data

How the results depend on the processing

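Between experiments, 8 members were called (12.5% of all genes), 4 of them Eif1ad copies. These copies passed the filter through experiment 1, which favoured a difference, so the counts are given as values only. The count was 8 with RLE size factors (12.5% of all genes in that fit), 7 with library size alone (11.3%), 10 with DESeq2 (10.6%), 12 without a filter (8.54%), 8 with a mean of at least 10 CPM (21.9%), 9 with cell number as a block (14.1%) and 7 with the library from 5000 cells added (11.4%). Leaving out 1 library gave 1 to 10, with 1 (7.57%) without the experiment 1 library from 10000 cells and 3 (6.43%) without the experiment 2 library from 20000 cells. For 40 members, which are those named by rule and 5 of the others in the text (Eif6, which gained a call under 2 alternatives, is not among them), these alternatives gave 431 values: 388 stayed on their side of the threshold, 24 lost their call and 19 gained one; 30 changed sign, none of them called. Between cell numbers 0 members were called under every alternative except the replicate block, which called 1, Eif3j1; the block changed no other call. With a library left out, that paired fit has no residual degrees of freedom and was not run, nor was a value per length for eIF3. The difference in summed share, -0.0339 percentage points, reversed to 0.00469 with TMM-scaled sizes and 0.000283 without the library from 5000 cells, and was -0.0829 to -0.0189 with 1 other library left out. The share ratio of Eif3j1 (log2) was -0.92 to 0.13 with 1 library left out, reversed to 0.13 without the experiment 1 library from 10000 cells, and that of Eif3d stayed between -0.42 and -0.37. Members with a peak in all lists numbered 14, and 13 and 15 within 500 and 2500 bp, 6 with peaks of at least 50 bp only, and 35 in the unified list, which is 1 list in place of 8. The cause of the other changes was not tested. Groups in the fits hold 2 libraries each, and the Eif1ad copies have few counts.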
